A study of Mus musculus with 6 samples.

Results

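The genes described here are 10 genes of the endothelium and the endocardium: Pecam1, Cdh5, Emcn, Plvap, Nfatc1, Klf2, Erg, Fli1, Esam and Egfl7. They were chosen by name, and each was found once among the 23284 genes of the expression table. The RNA-seq compared ventricles of E9.5 chimeric mouse embryos made by tetraploid complementation from C57BL/6 J-derived ES cells (strain label C57BL/6), with 3 WT embryos and 3 Tbx5ua KD embryos (genotype Tbx5ua -/-). Tbx5ua is a lncRNA transcribed divergently from the Tbx5 promoter. In KD ES cells both of its alleles carry tandem polyadenylation signals in an exon, which end its transcription early, and the selection cassettes had been removed. The study made KD embryos from clonal ES cell lines, and the labels do not say which line each embryo came from. The tetraploid host embryo contributes mainly to extraembryonic tissue. The targeted lncRNA is not analysed here, so the group labels have no check from it. The question was which genes of the ventricle are affected when Tbx5ua is lost. The authors' table gives 1 expression value per gene for each group, pooled over its embryos, in fpkm, a count of fragments scaled to transcript length and library size. Single embryos have no values of their own in it, so no SD or interval is given and these values were not tested anew. The table also has columns of the authors' own test over the embryos, which were not used here. All differences below are descriptions of these group values.

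The endocardium is the endothelial layer that lines the heart chambers and faces the trabecular myocardium across the cardiac jelly. It shares most of its genes with other endothelium, including the junction proteins that hold the cells together and the ETS transcription factors that maintain the endothelial program. Nfatc1 sets it apart, because in the early embryo this factor is largely restricted to the endocardium and is required for valve formation. Of the others, Klf2 responds to blood flow, and Plvap and Emcn mark venous, capillary and endocardial surfaces. A ventricle at this stage also holds cardiomyocytes, epicardial cells and blood. In such bulk tissue, fewer cells of a type and less RNA per cell cannot be told apart.

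All 10 genes had a value above 1 fpkm in both groups. The levels spanned a 69.8-fold range in WT and a 145-fold range in KD. Because fpkm is scaled to length they can be set beside each other, but only roughly. Other traits of the transcripts, such as GC content (41.5% for Emcn, 61.6% for Klf2), were not adjusted for here. This limit also holds for the ratios and shares between genes given below. In WT the order from the highest was Plvap, Egfl7, Emcn, Esam, Pecam1, Nfatc1, Cdh5, Klf2, Fli1 and Erg. In KD the first 3 genes and Nfatc1 and Erg kept their places, Pecam1 stood above Esam, and Fli1 stood above Cdh5 and Klf2. These exchanges were between neighbours of similar level, and without values of single embryos it could not be tested whether neighbours differed. The levels do not check the name of the group of genes, because many genes reach such values. They come from whole ventricles, in which endocardium was not separated from the other endothelium.

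**Figure D1:**
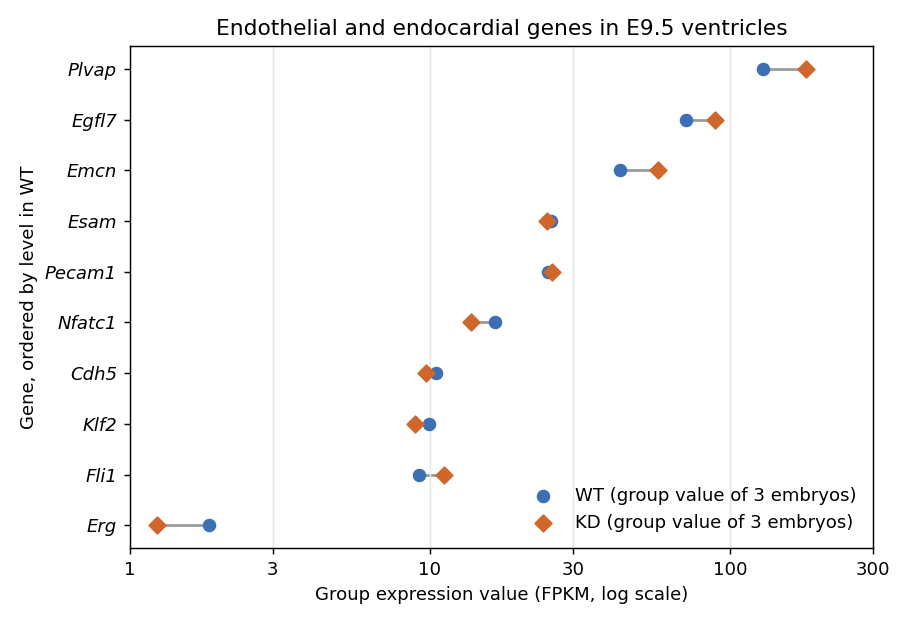
Group expression value in fpkm on a log axis for each of the 10 genes in WT (circles) and KD (diamonds), ordered by the WT level, with a line joining the 2 values of a gene and no error bars because the table gives 1 value a group. Plvap, Egfl7 and Emcn lie to the right in KD, Pecam1 and Esam nearly coincide, and Erg lies to the left.

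Between WT and KD the 10 genes were divided evenly, with 5 higher and 5 lower in KD. Differences are given as log2(fpkm + 0.1) in KD minus the same in WT, a scale that slightly understates the differences of low genes. The median difference of the 10 genes was 0.00, and the median over the 11366 genes with a mean fpkm of at least 1 was also 0.00. None of the 10 genes, 0 of 10, differed by 1.5-fold or more, a size that 6.48% of the 11366 genes passed. The differences ran from -0.54 for Erg to 0.48 for Plvap, so that both ends of the range came close to the 1.5-fold line at 0.585. With a limit of 1.2-fold, 5 of the 10 genes were past it, Plvap, Emcn, Egfl7 and Fli1 higher and Erg lower, against 27.3% of the 11366 genes, with 14.7% of them higher and 12.5% lower. Nfatc1, lower in KD, lay almost on the 1.2-fold line and just inside it, so the number of lower genes past it depends on a very small margin.

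The largest positive differences were those of Plvap, Emcn and Egfl7. Plvap encodes the protein of the diaphragms that span endothelial fenestrae and caveolae, and lies on chromosome 8 (mm10, chr8:71497753-71511769, minus strand). It had 129 fpkm in WT against 179 fpkm in KD, 1.39-fold higher, the highest level and the largest positive difference of the 10 genes. Emcn encodes endomucin, an endothelial sialomucin that limits adhesion of leukocytes, and lies at chr3:137341078-137431069 on the plus strand. Its level was 43.1 fpkm in WT against 57.4 fpkm in KD, 1.33-fold higher with a difference of 0.41. Egfl7 encodes a secreted protein that endothelial cells deposit in their matrix, and lies at chr2:26581056-26592682 on the plus strand. It had 71.4 fpkm in WT against 89.1 fpkm in KD, 1.25-fold higher with a difference of 0.32. These were the 3 members with a mean above 30 fpkm, and all 3 were past 1.2-fold in the same direction, which held for 5.88% of the 2927 genes at such levels. Relative to Pecam1 in the same group, Egfl7 was 2.87 times as high in WT and 3.48 times in KD, and Emcn 1.74 times in WT and 2.24 times in KD.

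The sequences upstream of Emcn and Egfl7, which lay on the same side in KD, are shown with that of Klf2, which lay on the other. RefSeq entries were found for these genes and for Erg, whose sequence is not printed. They are the 250 bases before the transcription start that RefSeq gives on GRCm38.p6, at chr3:137340828-137341077 for Emcn, chr2:26580833-26581082 for Egfl7 and chr8:72318812-72319061 for Klf2, all on the plus strand. For Egfl7, 1 of 3 listed starts was used, the one nearest the start of the locus in the table, and its window reaches 27 bases into that locus. Capitals mark GGAAG on either strand, which is the core GGAA of sites bound by ETS factors such as Erg and Fli1 with a G added.
Emcn: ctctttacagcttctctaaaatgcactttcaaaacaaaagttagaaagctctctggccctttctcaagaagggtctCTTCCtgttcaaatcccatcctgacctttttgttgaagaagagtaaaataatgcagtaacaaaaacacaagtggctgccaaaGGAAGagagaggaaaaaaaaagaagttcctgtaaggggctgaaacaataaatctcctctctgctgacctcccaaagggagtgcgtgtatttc
Egfl7: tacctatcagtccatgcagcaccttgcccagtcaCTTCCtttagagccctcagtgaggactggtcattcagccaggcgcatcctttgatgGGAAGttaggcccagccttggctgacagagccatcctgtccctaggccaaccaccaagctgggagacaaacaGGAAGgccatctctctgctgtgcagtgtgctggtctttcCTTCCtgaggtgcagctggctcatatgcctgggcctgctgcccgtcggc
Klf2: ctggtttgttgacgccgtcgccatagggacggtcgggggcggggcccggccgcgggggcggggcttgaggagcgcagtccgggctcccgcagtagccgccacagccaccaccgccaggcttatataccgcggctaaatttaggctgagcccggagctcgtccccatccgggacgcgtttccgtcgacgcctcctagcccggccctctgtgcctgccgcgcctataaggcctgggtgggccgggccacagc
GGAAG or its reverse complement occurred 2 times in the Emcn sequence, 4 times in that of Egfl7 and 0 times in that of Klf2. The shorter GGAA was not counted, and the Klf2 sequence does hold it on the other strand. In the sequence of Erg, also lower in KD and taken from 1 of 3 listed starts, GGAAG occurred 1 time, so matches were not limited to the genes higher in KD. GGAAG occurred at least once in 64.1% of 32544 upstream sequences of the same length, so a match is common. CACCC, the core letters bound by Klf factors, searched on both strands and not marked, occurred 1 time in the Klf2 sequence and 0 times in those of Emcn, Egfl7 and Erg, against 52.1% of all sequences. The matches describe letters in these windows and not bound sites.

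Egfl7 is also the host gene of miR-126, the microRNA most typical of endothelium. RefSeq places its mature form within the Egfl7 locus at chr2:26591402-26591423 on the plus strand, shown here with the seed, bases 2 to 8, in capitals.
mmu-miR-126a-3p: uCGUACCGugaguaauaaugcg
The table has a separate entry for the microRNA, Mir126, which is listed at 0 in both groups. Smart-Seq2 starts from polyadenylated RNA and does not capture mature microRNAs, so the higher Egfl7 level says nothing of the level of miR-126. Of the 50-base windows of the longest Egfl7 transcript, 9.54% also occur in the overlapping annotated gene model Gm20532. Of the genes with expression values, however, only Mir126 overlaps the Egfl7 locus, and how reads were assigned there was not tested.

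The junction proteins were nearly level between the groups. Pecam1, the adhesion molecule CD31 of endothelial contacts, which blood platelets also carry, lies at chr11:106654218-106715281 on the minus strand. It had 24.8 fpkm in WT against 25.6 fpkm in KD, a difference of 0.04. Esam, another immunoglobulin-like adhesion molecule of endothelial tight junctions and platelets, lies at chr9:37528089-37538319 on the plus strand. Its values were 25.3 fpkm in WT against 24.6 fpkm in KD, a difference of -0.04. Cdh5 encodes VE-cadherin, which builds the adherens junction of endothelium, and lies at chr8:104101625-104144502 on the plus strand. It had 10.5 fpkm in WT against 9.74 fpkm in KD, 1.08-fold lower with a difference of -0.11. Since Cdh5 was slightly lower and Plvap higher, the ratio of Plvap to Cdh5 was 12.2 in WT and 18.4 in KD.

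Of the 4 transcription factor genes, 3 were lower in KD and 1 was higher, with a median difference of -0.21. Nfatc1, which is activated by calcineurin and drives valve development from the endocardium, lies at chr18:80606205-80713071 on the minus strand. It had 16.4 fpkm in WT against 13.7 fpkm in KD, 1.2-fold lower with a difference of -0.26. Klf2, a zinc finger factor that is induced by shear stress, lies at chr8:72319062-72321654 on the plus strand. Its level was 9.98 fpkm in WT against 8.91 fpkm in KD, 1.12-fold lower with a difference of -0.16.

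Erg and Fli1 are closely related ETS factors with overlapping roles in endothelium, and they lay on opposite sides. Erg (chr16:95360204-95530365, minus strand) had 1.84 fpkm in WT against 1.24 fpkm in KD, 1.49-fold lower, the lowest level of the 10 genes and the largest difference in size. At such levels differences of this size were common: of the 2298 genes with a mean between 1 and 3 fpkm, 17.3% were past 1.5-fold, against 2.25% of the genes above 30 fpkm. Fli1 (chr9:32422208-32541368, minus strand), which is also active in megakaryocytes, had 9.22 fpkm in WT against 11.2 fpkm in KD, 1.21-fold higher with a difference of 0.27. The ratio of Fli1 to Erg was 5.01 in WT and 9.04 in KD. In a search of all annotated transcripts, 0% of the 50-base windows of Erg and 0.306% of those of Fli1 were found in another gene. How reads were divided between genes was not tested.

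**Figure D2:**
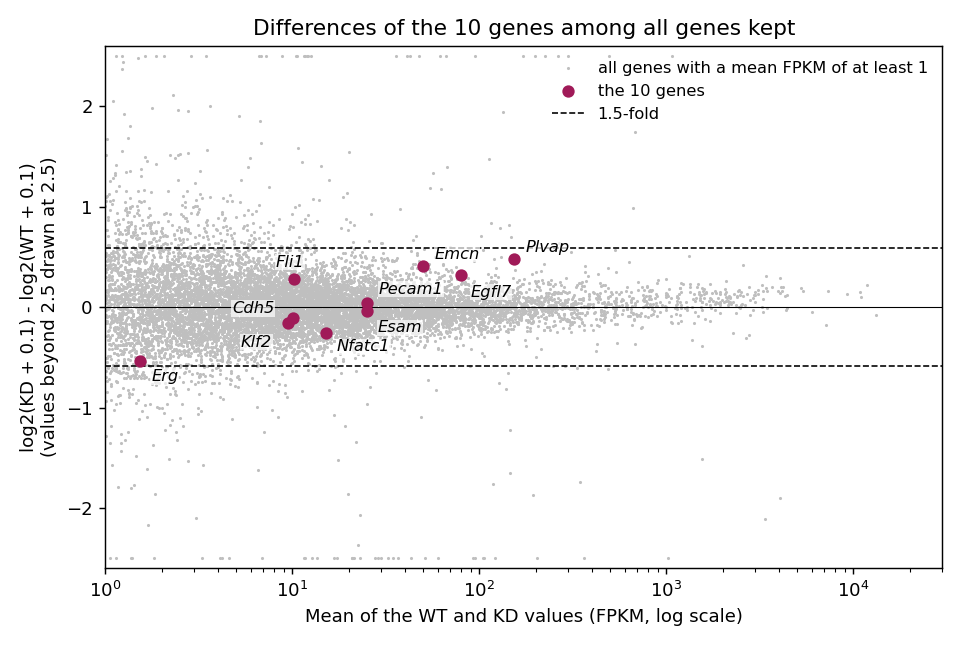
Difference between KD and WT on the log2(fpkm + 0.1) scale against the mean of both groups in fpkm (log axis), for the 11366 genes with a mean of at least 1 (grey) and the 10 genes (named), with dashed lines at 1.5-fold. All 10 genes lie between the lines, Erg where the grey points spread most and Plvap, Egfl7 and Emcn above most genes of their level.

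Summed over the 10 genes, the level was 341 fpkm in WT against 421 fpkm in KD, 1.23-fold higher. Plvap, Egfl7 and Emcn together had 243 fpkm in WT against 326 fpkm in KD. The other 7 genes together had 98.1 fpkm in WT against 95.0 fpkm in KD. The higher sum in KD therefore rested on the 3 most abundant members, and Plvap alone gave 37.7% of that sum in WT embryos and 42.6% in KD embryos. A summed level of such genes thus gave another picture than the median, in which each gene counts the same.

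Genes related to the 10 by role were taken in 7 lists. Some of them, such as the catenins, vinculin and the calcineurin subunits, are used by most cells of the ventricle, so counts over all 7 lists are not counts of endothelial genes. Of their 76 genes, 72 had a mean of at least 1 fpkm, and of these 45 were higher and 27 lower in KD with a median difference of 0.08. Past 1.5-fold were 6 of the 72 genes, or 8.33%, with 3 higher and 3 lower, near the 6.48% of all genes. Of the 3 lower genes, Klf4 and Ppp3cc were kept through their WT value alone, so they had to differ.

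Among 13 other endothelial transcription factors, none, 0 of 13, was past 1.5-fold, against 6.48% of all genes kept. At that share few or none of so few genes would pass. Of the 13, 9 were higher in KD with a median of 0.13, against a median of 0.00 for all genes kept. These factors ran from Lmo2, a partner of Tal1 in blood and endothelium, with 9.93 fpkm in WT against 8.77 fpkm in KD, to the ETS factor Elk3, with 11.4 fpkm in WT against 15.4 fpkm in KD. Among 16 receptors, 0 were past 1.5-fold, against the same 6.48%, and the median difference was 0.06. Tek, the angiopoietin receptor, was the lowest with 17.8 fpkm in WT against 15.5 fpkm in KD, and the endothelial lectin gene Clec14a the highest with 2.01 fpkm in WT against 2.51 fpkm in KD.

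Junction and surface genes held the largest single difference of the 7 lists. Cldn5, the claudin of endothelial tight junctions, had 3.07 fpkm in WT against 7.51 fpkm in KD, a difference of 1.26. Its ratio to Cdh5 was 0.292 in WT and 0.771 in KD. Ptprb, the receptor phosphatase that binds VE-cadherin, had 1.95 fpkm in WT against 1.19 fpkm in KD, a difference of -0.67. The other 9 genes of this list that were kept were within 1.5-fold, and the median was 0.19. Among 6 partners of VE-cadherin, Ptprb included, 5 were lower in KD, and the catenin gene Ctnnb1 was the highest with 95.6 fpkm in WT against 103 fpkm in KD.

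Around Klf2, the list of flow response genes had 6 of 11 higher in KD and a median of 0.09. Klf4, a related factor with overlapping targets, was the one gene of this list past 1.5-fold, with 1.27 fpkm in WT against 0.800 fpkm in KD, and was kept through its WT value alone. Nos3, the endothelial nitric oxide synthase that Klf2 is known to activate, was the highest with 14.0 fpkm in WT against 16.2 fpkm in KD.

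Around Nfatc1, the calcineurin-NFAT list had 4 of 10 genes higher in KD and a median of -0.08. Nfatc1 made up 77.2% of the summed fpkm of Nfatc1 to Nfatc4 in WT and 73.1% in KD. Ppp3cc, a catalytic subunit of calcineurin, had 1.58 fpkm in WT against 0.930 fpkm in KD, a difference of -0.70, and was also kept through its WT value alone. Rcan2, an inhibitor of calcineurin, had 6.11 fpkm in WT against 9.25 fpkm in KD, a difference of 0.59. Rcan1, its relative and an NFAT target in the endocardium, had 63.1 fpkm in WT against 52.1 fpkm in KD, a difference of -0.28 on the same side as Nfatc1.

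In the list of endocardium-enriched genes 5 of 8 were higher in KD, with a median of 0.06. Tmem100, which acts downstream of BMP signals in endothelium, was past 1.5-fold with 10.2 fpkm in WT against 15.8 fpkm in KD. Nrg1, the neuregulin that endocardium sends to the trabecular myocardium, was the lowest with 4.52 fpkm in WT against 3.36 fpkm in KD, a difference of -0.42.

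**Figure D3:**
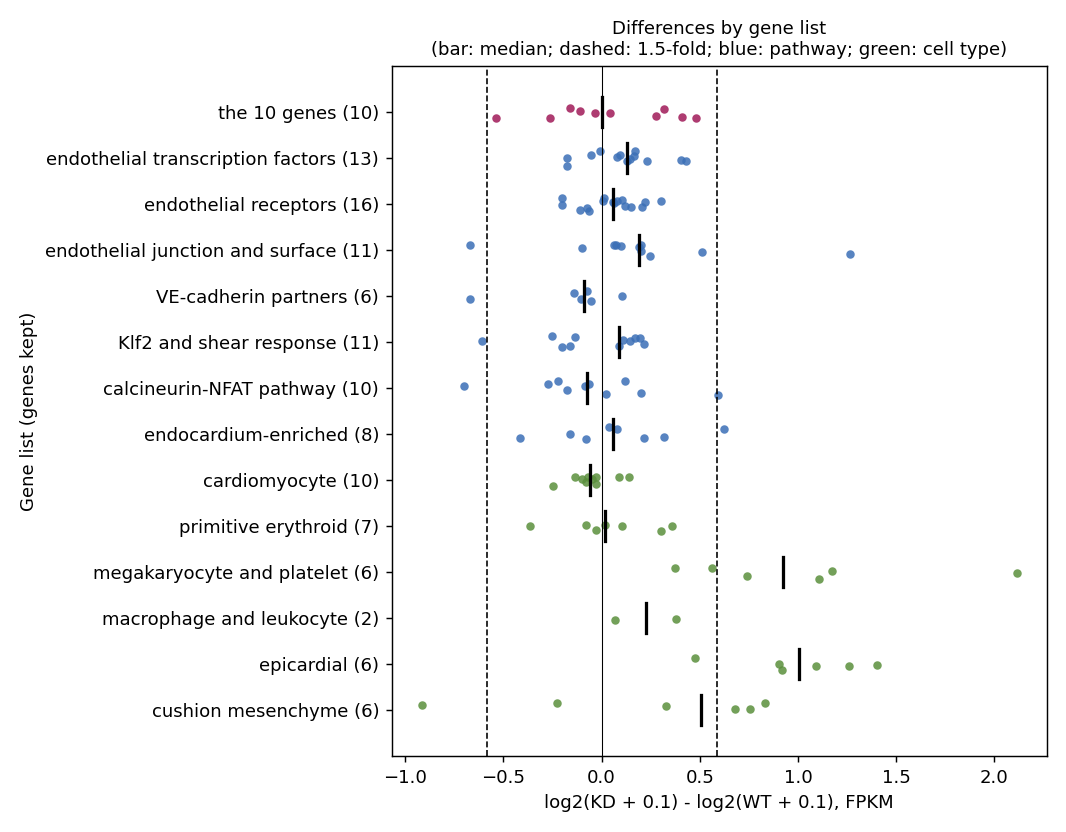
Difference between KD and WT on the log2(fpkm + 0.1) scale for each gene with a mean of at least 1 fpkm, by list, with the number of genes in brackets, the median as a black bar and dashed lines at 1.5-fold. The medians of the 10 genes (0.00) and of the 7 pathway lists lie between -0.09 and 0.19, while those of the megakaryocyte (0.92) and epicardial (1.01) lists lie past 1.5-fold.

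Markers of other cells of the ventricle differed by list. The cardiomyocyte list had 8 of 10 genes lower in KD with a median of -0.06, from Myh6, an alpha myosin heavy chain gene with 284 fpkm in WT against 239 fpkm in KD, to Nkx2-5 with 224 fpkm in WT against 247 fpkm in KD. Primitive erythroid genes, of which 7 of 8 were matched, had a median of 0.02, with Klf1 the lowest at 9.75 fpkm in WT against 7.55 fpkm in KD.

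Megakaryocyte and platelet genes were higher in KD in 8 of 8 cases, or 6 of the 6 with a mean of at least 1 fpkm. Their summed level was 47.5 fpkm in WT against 105 fpkm in KD, and the median difference of all genes kept was 0.00. Of the 6 kept, 4 were past 1.5-fold, against 6.48% of all genes kept and 17.3% of those with a mean between 1 and 3 fpkm, and Gp9 was kept through its KD value alone. Pf4 (platelet factor 4) had 38.5 fpkm in WT against 86.9 fpkm in KD, and Gp9, a subunit of the platelet von Willebrand receptor, had 0.804 fpkm in WT against 3.81 fpkm in KD. The others past 1.5-fold were Gp1bb (1.61 and 3.58 fpkm) and Ppbp (2.10 and 3.58 fpkm). Megakaryocytes also express Fli1, Pecam1, Esam and Erg. Of these 4 genes Fli1 was higher in KD, Pecam1 and Esam were nearly level and Erg was lower, and the part of megakaryocytes in the Fli1 value was not tested.

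Leukocytes gave little signal. Of 8 macrophage and leukocyte genes 2 had a mean fpkm of at least 1, Fcer1g with 1.82 fpkm in WT against 2.40 fpkm in KD and Laptm5 with 2.95 fpkm in WT against 3.10 fpkm in KD, and the defining leukocyte gene Ptprc was near 0 in both groups. Over the whole list 4 of 8 genes were higher and 4 lower in KD. The summed level of the list was 7.30 fpkm in WT against 7.04 fpkm in KD.

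Epicardial genes were higher in KD in 7 of 7 cases, or 6 of the 6 with a mean of at least 1 fpkm. Their summed level was 47.1 fpkm in WT against 96.0 fpkm in KD, and the median difference of all genes kept was 0.00. Of the 6 kept, 5 were past 1.5-fold, against 6.48% of all genes kept and 2.97% of those with a mean of at least 5 fpkm. Among these 6 only Aldh1a2 had a mean between 1 and 3 fpkm, where 17.3% passed. Aldh1a2 was kept through its KD value alone, so it had to differ. The uroplakin gene Upk3b was the highest with 7.80 fpkm in WT against 20.7 fpkm in KD, and Wt1 the lowest with 13.8 fpkm in WT against 19.2 fpkm in KD. Among the others past 1.5-fold were Upk1b (9.17 and 22.1 fpkm), Tcf21 (11.9 and 25.5 fpkm) and Aldh1a2 (0.872 and 1.74 fpkm). The part of such cells in the higher Plvap, Emcn and Egfl7 values was not tested.

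Cushion mesenchyme, which forms from the endocardium, had mixed values, with 4 genes higher and 2 lower in KD and a median of 0.50 over 6 genes. Past 1.5-fold were 3 higher and 1 lower, against 6.48% of all genes kept. Sox9 had 8.95 fpkm in WT against 16.0 fpkm in KD, Snai2 1.45 and 2.52 fpkm, and Twist1 1.98 and 3.23 fpkm. Snai2 and Twist1 had means between 1 and 3 fpkm, where 17.3% of genes passed 1.5-fold. Msx1, which is also active in cushion endocardium, had 5.60 fpkm in WT against 2.92 fpkm in KD, a difference of -0.92.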

How the data were processed

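Total RNA of ventricles from 3 WT and 3 KD embryos at E9.5 was made into Smart-Seq2 libraries and sequenced single-end. The submitters' processing notes name TopHat, Bowtie2 and Cuffdiff and the build mm10, with versions not given in the sources used here. The authors deposited 1 Cuffdiff table, in which the values used here are FPKM per gene, 1 for each group. Its second group reads KO and was taken as KD, the only group other than WT. Its columns of the authors' own comparison (log2 fold change, test statistic, p-value and q-value) were not used. There were no columns of single embryos, and no read counts, so the depth and its precision are unknown, and low values could not be turned into whole reads because each gene has its own step.

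Genes with a mean FPKM of at least 1 were kept (11366), leaving out 2 that Cuffdiff marked as having too many reads, and differences were taken on log2(FPKM + 0.1), KD minus WT. With 1 value a group no new test was made, and a gene was counted as past a fold of 1.5. Named were all 10 genes and, of each list, the highest, the lowest and up to 4 genes past 1.5-fold, except 2 list genes whose values are not reported here. Rcan1, Ptprc and the ratios were chosen after their values had been seen. The genes and lists were chosen with earlier results of these data known. Missing symbols were matched through RefSeq synonyms. Starts in the table count from 0 and are printed with 1 added, on mm10, the build of GENCODE M21, which gave strands and transcripts. The libraries do not mark strand by design, and 5 of the 10 genes overlap an annotated gene on the other strand, so reads from the shared stretch of such a pair cannot be told apart. RefSeq (GRCm38.p6) gave promoter entries for 4 of the 10 genes, of which 3 are shown. Python 3.11.15, NumPy 2.4.6, pandas 2.3.3 and Matplotlib 3.10.9 were used.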

Additional observations from a re-analysis of the deposited data

How the results depend on the processing

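No paired analysis was possible because the columns carry group values only, so leaving out each replicate and the replicate block were not run either. None of the 10 genes (0 of 10) was past the fold limit with no pseudocount or with the median of all genes subtracted, against 6.56% and 6.46% of all genes kept. The count was also 0 with a pseudocount of 1, at 2-fold, with no filter and with a mean of at least 5 FPKM. Those settings could not have brought a gene past the limit, so that 0 followed from the count as reported. At 1.2-fold 5 were past it, against 27.3% of all genes kept. The median of the 10 genes moved from 0.00 to 0.0437 with a mean of at least 5 FPKM, which leaves out Erg. All genes past the limit numbered 736, against 388 with a pseudocount of 1, 228 at 2-fold, 3100 at 1.2-fold, 2814 with no filter and 229 with a mean of at least 5 FPKM. Genes of the pathway and cell type lists past it numbered 19, against 10, 7, 34, 26 and 9 under the same settings in the same order. A pseudocount, a fold limit or a filter cannot change the sign of a gene's difference. Subtracting the median could, and it changed no sign among the 10 genes. Of the list medians 2 changed sign, that of the leukocyte list with no filter (-0.05) and that of the calcineurin-NFAT list with a mean of at least 5 FPKM (0.07). Without the depth, the precision of Erg and of other genes near 1 FPKM is unknown.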

Other observations

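Plvap and Klf2 lie 807292 bases apart on chromosome 8, and 14 genes with a mean FPKM of at least 1 lie between them. The median difference of these 14 genes was 0.08, between the 0.48 of Plvap and the -0.16 of Klf2, and their differences ran from -0.59 to 0.52. Of the 14 genes 1 was past 1.5-fold, against 6.48% of all genes kept and 17.3% of those with a mean between 1 and 3 FPKM. It was B3gnt3, with 1.81 FPKM in WT against 1.17 FPKM in KD, and was singled out after its value had been seen. Gtpbp3, which overlaps Plvap by 1819 bases on the other strand, had 9.37 FPKM in WT against 8.69 FPKM in KD, lower in KD where Plvap was higher. Agpat2, which overlaps Egfl7 by 64 bases on the other strand, had 7.15 FPKM in WT against 6.19 FPKM in KD, lower in KD where Egfl7 was higher.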
